A study of Homo sapiens with 6 samples.

Results

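HEK293 cells, an established human embryonic kidney line, were mock transfected, and RNA made during 60 min with 700 µM 4-thiouridine (4sU) was compared with the RNA left unlabelled in the same cells. The comparison used the 2 labelled and the 2 flow-through columns of the mock cells, 4 of 12 expression columns of the deposited table, and every one of its 7682 rows. GEO lists 6 samples for the series, 1 for each of 3 fractions with and without MOV10 siRNA, and these columns belong to 2 of them. The mock total RNA columns gave each gene's level, and no siRNA column was used. All groups shared the 4sU treatment, and no unlabelled cells were among the samples analysed here. The table header numbers 2 replicates of each fraction. Nothing in the labels says that they were separate cultures, so every test below measures the spread between these columns only.

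4sU is a uridine analogue that living cells take up and build into new transcripts. Its sulfur can be coupled to biotin, and streptavidin beads then capture a labelled fraction of recent transcripts. The flow-through that is not captured holds mostly transcripts made before the pulse. At a steady level, an mRNA that decays fast is replaced fast and makes up more of the labelled fraction, while a stable mRNA stays mostly in the flow-through. Messages for signalling regulators and transcription factors are known for fast decay, often through AU-rich elements in the 3' UTR, where proteins such as ZFP36 recruit the deadenylation machinery. Messages for ribosomal proteins and metabolic enzymes are known for slow decay.

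AU-rich stretches are shown for 7 of the genes that lay furthest towards the labelled fraction, because ATTTA pentamers are the core of AU-rich elements. They are the first 7 genes named as the highest overall or the highest of a list that had 3 or more pentamers in the longest annotated 3' UTR; the chromosome of TRIB1 was left aside. Each stretch is the 28 bases of the 3' UTR with the most pentamers, 5' to 3', from the GENCODE 29 transcripts (GRCh38), in DNA letters. Capitals mark ATTTA.
OTUD1: ataagtctgaataaaatataATTTAaaa
DUSP1: tccttATTTATTTAacttcacccgagtt
ADAMTS1: taataacatATTTAtttttatacATTTA
ADM: agtctctgtataatctATTTAcataaaa
MYLIP: tATTTAttttttcacttgtaaaaaaata
KLF11: ttaattaccagcATTTAcctttATTTAa
DNAJB9: agaaaatgaATTTAttctgttatATTTA
The 3' UTR of DNAJB9 held 8 pentamers, that of KLF11 6, and those of OTUD1 and ADAMTS1 5 each. Of the 10 protein-coding genes with the highest labelled minus flow-through difference among rows with a mean total of 5 or more, 8 had a 3' UTR with ATTTA and 5 one with the longer TATTTAT. DDIT4 and HES1 had no ATTTA, so the pentamer was not shared by the whole group. TRIB1, ID1 and CHAC1 had 1 each. The rule of 3 or more pentamers left all of these genes out of the stretches above. Of the 10 lowest, 3 had ATTTA and 1 had TATTTAT. Over all 7570 annotated 3' UTRs the shares were 74.8% and 36.5%, so 8 of the 10 highest with ATTTA was near the share over all. The median 3' UTR was 802 bases in the 10 highest, 264.5 in the 10 lowest and 1417.5 over all. Shorter 3' UTRs hold fewer motifs by their length alone, so no lack of AU-rich sequence is read from the 10 lowest.

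The table held normalised expression values of 1.00 or more in a unit that its header does not name, so the sequencing depth of the libraries is unknown. No row had a lower value in the columns used, so messages under this level are not seen here, which bears on fast mRNAs with little flow-through RNA and on slow ones with little labelled RNA. Ranks of the 7682 rows were close between the columns of a fraction (Spearman 0.994 for labelled and 0.996 for flow-through RNA, across genes, which are not independent replicates) and less so between fractions (0.693 to 0.709). Of 13 genes listed as marks of HEK293 cells 6 were in the table, among them NEFL (total RNA 21.8 and 24.7) and VIM (217 and 249). Of 13 marks of blood, fibroblasts, endothelium and hepatocytes 1 was, the globin gene HBA1 (total RNA 14.5 and 18.5). The other marks were not among the rows analysed here.

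Most mRNAs differed between the fractions by more than the columns of a fraction differed from each other. Each column's median was subtracted on the log2 scale, so a difference of 0 means the same place relative to the median in both fractions. In limma with Benjamini-Hochberg adjustment at 0.05, 6681 of 7682 rows were called (87.0%). Of these, 2835 were higher in labelled RNA (36.9%) and 3846 higher in flow-through RNA (50.1%). The middle row lay at -0.22 and not at 0, because medians were subtracted column by column. This split follows the centring. It was 1362 against 5568 with no centring and 3862 against 2670 when columns were centred on rows whose mean total RNA level was at least 20. The labelled and flow-through columns did not overlap after centring in 7189 rows (93.6%), and 2 against 2 columns cannot give an exact permutation p below 0.333. Because nearly every row was called, a 2-fold rule was added to the test. By it 1498 rows were higher in labelled RNA (19.5%) and 1847 higher in flow-through RNA (24.0%), and groups are read against these shares below. The difference ran from -3.86 to 5.97 with an SD of 1.28 over rows, against a median standard error (SE) of 0.08. The rows at the 10th and 90th percentile, at -1.60 and 1.72, were 10.0-fold apart.

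The half-lives that the authors deposited put this range on a time scale. They were computed from the same expression values and are no separate evidence. The median was 657 min in the replicate 1 column and 713 min in the replicate 2 column. Both columns were under 60 min in 40 rows, under 120 min in 265 rows and over 1440 min (1 day) in 905 rows. The shortest values were 19.5 and 15.9 min and the longest 7662 and 5401 min. Ranks of half-life and difference followed each other in reverse (Spearman -0.964 over 7682 genes). The columns disagreed by more than 2-fold in 25 rows, and their median ratio was 1.11.

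**Figure D1:**
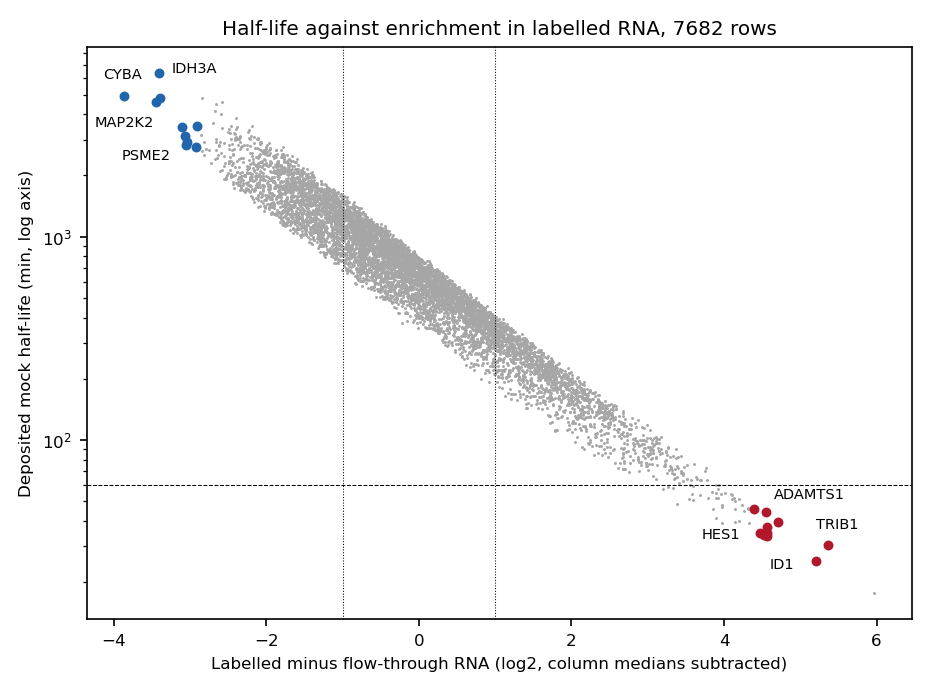
Each grey point is 1 of 7682 rows; the horizontal axis is the labelled minus flow-through difference (log2, column medians subtracted) and the vertical axis the geometric mean of the 2 deposited half-life columns (min, log axis). Red points are the 10 highest and blue points the 10 lowest named protein-coding genes, dotted lines stand at -1 and 1, and the dashed line marks the 60 min of labelling.

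TRIB1 and ID1 lay furthest towards the labelled fraction among protein-coding genes with a mean total of 5 or more. TRIB1, a pseudokinase that steers proteins to ubiquitin ligases, had labelled values of 110.4 and 112 and flow-through values of 4.54 and 5.35. Relative to the column medians it was 41.1-fold higher in labelled RNA (difference 5.36, SE 0.09, limma, Benjamini-Hochberg adjusted p = 9.16e-08). Its half-lives were 28.8 and 31.96 min. ID1, which blocks basic helix-loop-helix factors, stood at 53.9 and 59.3 in labelled RNA against 2.51 and 3.13 in the flow-through (difference 5.20, half-lives 24.5 and 26.5 min). Both genes had every labelled value at least 10 times above every flow-through value.

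The next genes lay close together. OTUD1, a deubiquitinase, was at 52.4 and 54.1 in labelled RNA against 3.66 and 3.79 in the flow-through (difference 4.70). CHAC1, a glutathione-degrading enzyme induced by amino acid and ER stress, was at 204 and 204 against 13.2 and 18.7 (4.57). DDIT4, an inhibitor of the growth kinase complex mTORC1, was at 819 and 771 against 61.5 and 61.1 (4.56). Its half-lives were 34.2 and 35.9 min, with total RNA values of 114 and 119.6. DUSP1, a phosphatase that switches off MAP kinases, was at 162 and 179 against 13.1 and 13.3 (4.56). ADAMTS1, a secreted metalloprotease, was at 168 and 195 against 12.8 and 15.7 (4.55). ADM, which encodes the peptide hormone adrenomedullin, was at 109 and 113 against 8.897 and 8.74 (4.52). HES1, a repressor induced by Notch, and MYLIP, a ubiquitin ligase, completed the 10 at 4.47 and 4.39. The half-lives of all 10 lay between 24.5 and 47.2 min in both columns.

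**Figure D2:**
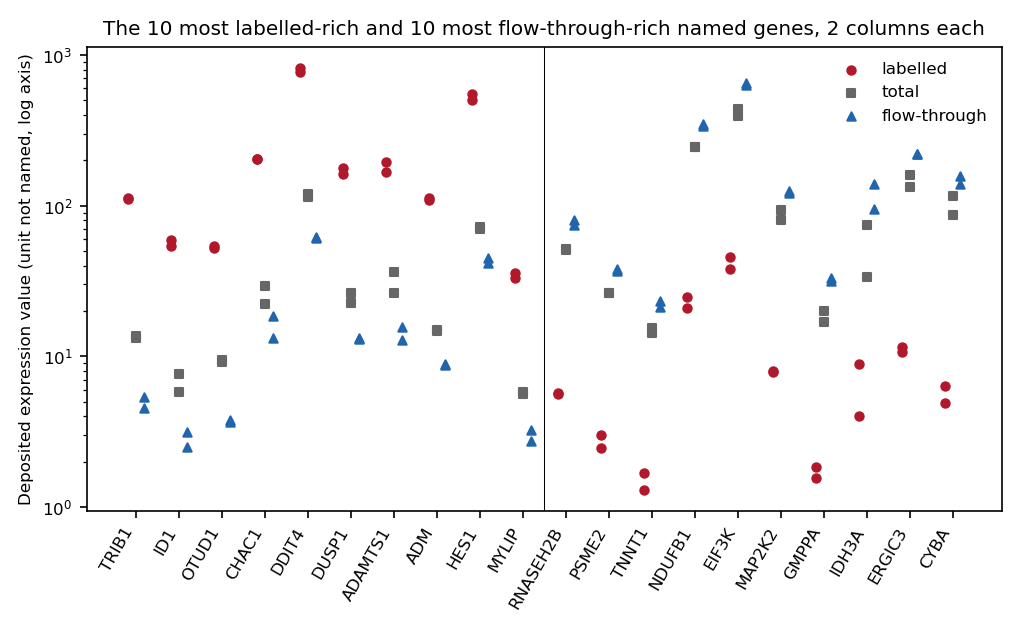
Deposited expression values (unit not named, log axis) of the 10 highest (left) and 10 lowest (right) named protein-coding genes; red circles are the 2 labelled columns, grey squares the 2 total RNA columns and blue triangles the 2 flow-through columns. On the left every labelled value lies above every flow-through value, and on the right every one lies below.

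Immediate early genes, the first to be transcribed after a stimulus, were the group furthest towards the labelled fraction. Of 63 listed, 41 were in the table, 37 were 2-fold or more higher in labelled RNA and 0 in flow-through RNA. Their median difference was 2.76 against -0.22 over all rows, and their median half-life 93.9 min. Members named after their values were seen show the range. FOS, a subunit of the AP-1 transcription factor, was at 42.8 and 45.7 in labelled RNA against 4.500 and 4.63 in the flow-through (difference 4.14, half-lives 46.1 and 45.8 min). Its partners differed from it, with JUNB at 3.33 (56.8 and 58.8 min) and JUN at 2.91 (97.5 and 90.5 min). ID2 and ID3, relatives of ID1, had differences of 3.57 and 3.59 and half-lives of 54.5 and 54.2 min and of 50.6 and 50.2 min, both about 2 times as long as those of ID1. ZFP36 and ZFP36L1, which bind AU-rich elements and trigger decay, were themselves at 2.98 and 2.98. MCL1, a short-lived survival protein, was at 2.41 with half-lives of 138 and 148 min. CSRNP2, the lowest member, had labelled values of 4.66 and 4.09 and flow-through values of 9.63 and 9.62. Its difference of -0.28 turned to 0.18 when columns were centred on rows with a total of 20 or more.

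Feedback inhibitors of signalling lay in the same range. All 11 of 18 listed MAP kinase phosphatase, Sprouty and SPRED genes that were in the table were 2-fold or more higher in labelled RNA, with a median of 2.18 and a median half-life of 168 min. Of these 11, 7 had a mean total of 5 or more. The list ran from DUSP1 down to DUSP14, at 60.3 and 52.5 in labelled RNA against 43.7 and 46.5 in the flow-through (difference 1.19, half-lives 196 and 242 min). Genes of oscillators and short transcriptional feedback loops had 20 of 23 members past 2-fold towards labelled RNA, a median of 2.39 and a median half-life of 137 min. A mean total of 5 or more was reached by 14 of the 23. The inhibitors of 3 pathways, named after their values were seen, stood out: SMAD7 of TGF-beta signalling at 4.31 (43.99 and 47.7 min), NFKBIA of NF-kappaB at 4.19 (38.1 and 42.02 min) and the circadian repressor BHLHE40 at 4.23 (45.3 and 50.2 min). The clock repressor CRY1 was the lowest at 7.38 and 7.75 in labelled RNA against 25.3 and 23.7 in the flow-through (difference -0.83, half-lives 1165 and 1075 min). The clock gene PER1, at 1.27 and with half-lives of 251 and 301 min, lay on the other side of 0 from CRY1.

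Transcription factors were labelled-rich as families. Of 51 homeobox, forkhead, SOX and KLF genes present 34 were 2-fold or more higher in labelled RNA and 0 in flow-through RNA (median 1.64, median half-life 208 min). KLF11, a Kruppel-like factor of TGF-beta signalling, led with 43.8 and 44.1 in labelled RNA against 4.68 and 5.82 in the flow-through (difference 3.94). PBX2, a cofactor of HOX proteins, was the lowest at -0.99 with half-lives of 1109.9 and 1278 min. The numbered ZNF zinc finger genes, most of them DNA-binding repressors, were the largest family, and 213 of 330 were 2-fold or more higher in labelled RNA and 3 in flow-through RNA (median 1.45, median half-life 231 min). They ran from ZNF574 at 4.27 (43.8 and 45.6 min) to ZNF76 at -1.93 (1928 and 1954 min). ZNF574 had 2 exons and ZNF76 14 in the transcript used here. BTB and kelch genes, many of them adaptors of ubiquitin ligases, had 29 of 58 members towards labelled RNA and 2 towards flow-through RNA (median 1.01). Among members with a mean total of 5 or more ZBTB6, a zinc finger protein, was the highest at 3.03 and KCTD17, a ubiquitin ligase adaptor, the lowest at -2.49. The medians of these lists and of those in the 2 preceding paragraphs kept their sign under every centring tried. Their size depended on the level. With rows under a total of 20 left out, the medians were 1.64 for homeobox, forkhead, SOX and KLF genes, 0.81 for ZNF genes and 0.46 for BTB and kelch genes. They were then 2.85 for immediate early genes, 3.33 for phosphatase, Sprouty and SPRED genes and 2.05 for oscillator and feedback loop genes. On that scale LSR, a row near 0 here, stood at 0.46. The median total was 6.15 for ZNF genes, against 13.3 over all rows.

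Histone transcripts came out on both sides. The libraries were poly(A)+ per the labels, while most replication-dependent histone mRNAs end in a stem-loop without poly(A). Of 31 messages present 22 were 2-fold or more higher in labelled RNA and 2 higher in flow-through RNA (median 1.78, median half-life 121 min). HIST1H2AK, a replication-dependent H2A gene, was at 21.97 and 26.6 in labelled RNA against 5.87 and 3.03 in the flow-through (difference 3.38, SE 0.28). H2AFY, which encodes the variant macroH2A, was at 32.6 and 28.6 against 263 and 254 (difference -2.22, half-lives 2148 and 2426 min). The other variant genes H2AFZ (-0.75) and H3F3B (0.71), named after their values were seen, lay between them. Histone genes have many near-identical copies, and the labels do not say how shared reads were assigned.

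CYBA and ERGIC3 lay furthest towards the flow-through. CYBA, the membrane subunit of NADPH oxidases, had labelled values of 4.87 and 6.34 and flow-through values of 156 and 139 (difference -3.86, SE 0.14, limma, Benjamini-Hochberg adjusted p = 3.02e-07). Its half-lives were 5904 and 4120.3 min. ERGIC3, a cargo receptor between ER and Golgi, was at 11.6 and 10.6 in labelled RNA against 221 and 221 in the flow-through (-3.45). The labelled and flow-through columns of both genes were more than 10-fold apart before centring.

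IDH3A, a subunit of the citrate cycle's isocitrate dehydrogenase, had a difference of -3.41 but varied between columns, with 4.01 and 8.84 in labelled, 94.5 and 139.9 in flow-through and 33.7 and 74.3 in total RNA (SE 0.37). GMPPA, which regulates GDP-mannose synthesis, was at -3.40 with labelled values of 1.84 and 1.55, close to the table's minimum of 1.00. MAP2K2, the kinase MEK2, was at 7.82 and 7.98 in labelled RNA against 126 and 122 in the flow-through (-3.10, half-lives 3530.4 and 3428 min). Thus a kinase of the MAP kinase cascade and DUSP1, a phosphatase that ends its signal, lay near opposite ends of the range. EIF3K, a subunit of translation initiation factor eIF3, and NDUFB1, a subunit of respiratory complex I, were at -3.07 and -3.05. TNNT1, a troponin, PSME2, a proteasome activator, and RNASEH2B, a ribonuclease H2 subunit, were at -3.03, -2.92 and -2.90. The half-lives of these 10 lay between 2416 and 7662 min.

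Cytosolic ribosomal protein genes were the list furthest towards the flow-through. Of 53 genes present 49 were 2-fold or more higher in flow-through RNA and 0 in labelled RNA (median -1.79, median half-life 1329 min). RPS10 was at 439.7 and 382 in labelled RNA against 4306 and 4157 in the flow-through (difference -2.50, half-lives 1936 and 2205 min). RPS27L, a p53-induced relative of RPS27, was at the other end of the list with 18.3 and 16.7 against 45.01 and 39.4 and half-lives of 604 and 594 min. Its difference was -0.41, or 0.06 with columns centred on rows with a total of 20 or more.

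Nuclear-encoded subunits of oxidative phosphorylation followed, with 51 of 62 higher in flow-through RNA by 2-fold or more and 0 in labelled RNA (median -1.67, median half-life 1307 min). NDUFB1 was the lowest, at 24.7 and 21.1 in labelled RNA against 350.1 and 340.2 in the flow-through. SDHD, the membrane anchor of complex II, was the highest at -0.22 (544 and 615 min), or 0.24 by the other centring. Enzymes of glycolysis and the citrate cycle had 23 of 29 members towards the flow-through and 0 towards labelled RNA (median -1.53, median half-life 1373 min). GAPDH, a glycolytic enzyme often used as a reference gene, was at -1.61 with half-lives of 1204 and 1294 min, and the reference gene ACTB at -0.04 with half-lives of 489 and 516 min. Both were named after their values were seen, and ACTB was not called (limma, Benjamini-Hochberg adjusted p = 0.529).

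Proteasome subunits had 21 of 27 members 2-fold or more higher in flow-through RNA and 0 in labelled RNA (median -1.28, median half-life 1198 min). PSMD4, the proteasome's ubiquitin receptor, was at 30.8 and 28.4 in labelled RNA against 267 and 261 in the flow-through (difference -2.29). PSMD7, a lid subunit, was at 45.2 and 38.1 against 91.6 and 86.99 (-0.24, or 0.22 by the other centring). Translocon, glycosylation and lysosomal genes had 22 of 38 past 2-fold towards the flow-through and 0 towards labelled RNA (median -1.18), with SSR4 of the translocon at -2.41 (2018 and 1984 min). Of 13 genes of tRNA synthetases and their cofactors 6 passed in that direction and 0 in the other (median -0.93, median half-life 1070.5 min), led by the leucyl-tRNA synthetase LARS at -2.12 (2682 and 3389 min). The medians of these lists, from the ribosome to the synthetases, stayed below 0 under every centring tried.

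**Figure D3:**
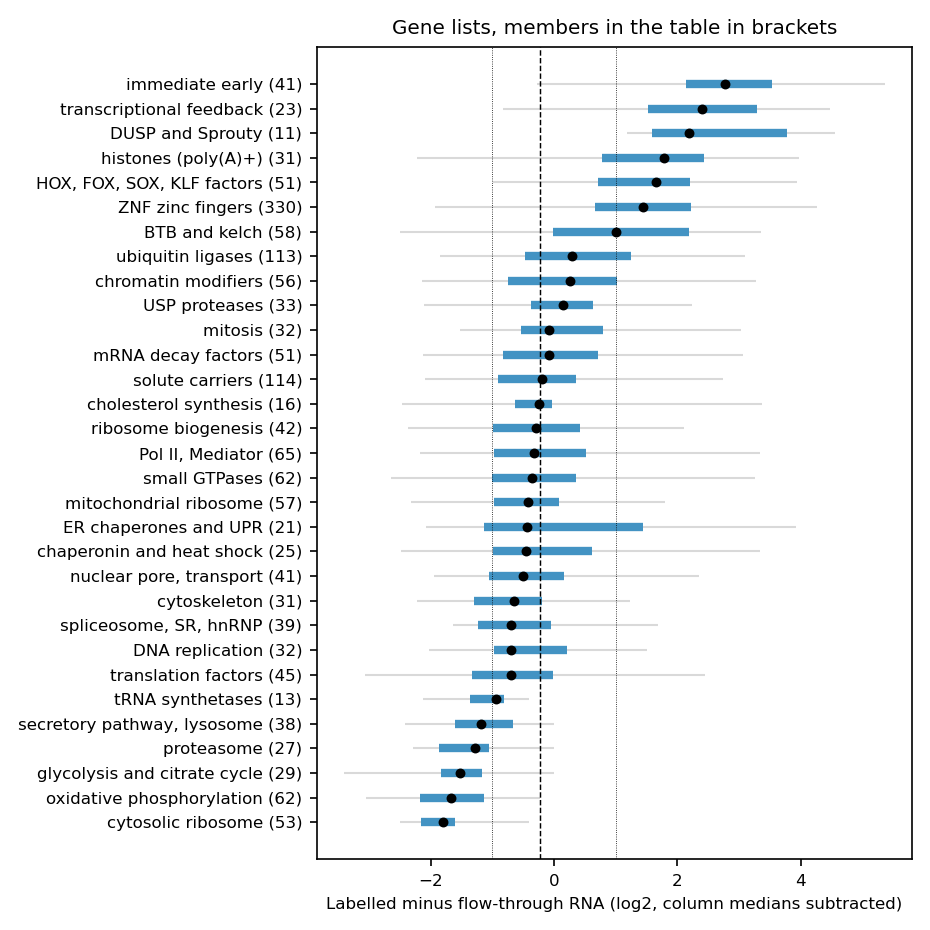
Labelled minus flow-through difference (log2, column medians subtracted) of 31 gene lists with 5 or more members in the table; points are medians, thick bars run from the 25th to the 75th percentile of the members and thin lines their whole range. The dashed line is the median of all rows (-0.22) and dotted lines stand at -1 and 1; immediate early genes are at the top with 2.76 and cytosolic ribosomal proteins at the bottom with -1.79.

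Several functional groups held both fast and slow messages. ER chaperone and unfolded protein response genes had 7 of 21 members 2-fold higher in labelled and 6 in flow-through RNA. DNAJB9, a cochaperone induced by ER stress, was at 35.1 and 33.8 in labelled RNA against 4.28 and 3.99 in the flow-through (difference 3.92, half-lives 57.1 and 57.3 min). CRELD2, another ER stress target, was at 2.78 and 3.301 against 22.6 and 23.98 (-2.08, half-lives 1836 and 1685 min). The stress transcription factors DDIT3 and ATF4 were at 2.69 and 1.70 and the main ER chaperone HSPA5 at 0.76, named after their values were seen. Cytosolic chaperones were split too, with 5 and 5 of 25 on either side. The inducible HSPA1A, a gene with 1 exon, was at 78.5 and 85.5 in labelled RNA against 14.5 and 15.02 in the flow-through (difference 3.34, half-lives 64.5 and 63.4 min). HSF1, the transcription factor that induces it, was at 3.98 and 4.66 against 42.9 and 44.6 (-2.48, half-lives 2584 and 2357 min). HSPA1A has a near-identical copy, HSPA1B, and reads of the pair may not have been separated.

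Of 16 cholesterol genes 1 passed 2-fold towards labelled RNA and 3 towards flow-through RNA. The highest difference of the list was 3.37, of a member outside the rule for named genes given below. Among members within that rule INSIG1, the feedback sensor of the pathway, was the highest. It was at 27.4 and 25.04 in labelled RNA against 25.9 and 25.1 in the flow-through (difference 0.90, half-lives 336 and 367 min). LSS, the enzyme that closes the sterol ring, was at 1.82 and 1.68 against 17.6 and 17.5 (-2.46, half-lives 3312 and 3685 min). In the cell cycle, FBXO5, which restrains the anaphase-promoting complex, was at 111 and 109 in labelled RNA against 24.9 and 24.2 in the flow-through (3.03), while the phosphatase CDC25B was at -1.52 (1657 and 1825 min). Of 32 mitotic genes 7 and 3 passed on the labelled and the flow-through side. Of 32 replication genes 3 and 7 did (median -0.70), from the licensing factor CDT1 at 1.502 (181 and 195 min) to DNA ligase LIG1 at -2.03 (1964 and 2339.6 min).

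Among deadenylation, decapping, exosome and AU-binding genes 9 of 51 were 2-fold higher in labelled and 11 in flow-through RNA (median -0.09). TOB1, an adaptor that brings the CCR4-NOT deadenylase to mRNAs, was at 56.5 and 55.5 in labelled RNA against 11.3 and 13.2 in the flow-through (difference 3.07, half-lives 79.3 and 93.5 min). EXOSC1, a subunit of the RNA exosome, was at 12.9 and 12.5 against 96.6 and 105 (-2.12, half-lives 1713 and 1974 min). MOV10, the helicase depleted elsewhere in the series, was at 2.95 and 3.196 in labelled RNA against 19.6 and 19.3 in the flow-through, a difference of -1.80 (SE 0.09, limma, Benjamini-Hochberg adjusted p = 1.19e-06) with half-lives of 2115 and 1985 min. UPF1, the helicase of nonsense-mediated decay, was at 25.2 and 24.2 against 36.1 and 34.8, with half-lives of 515 and 535 min. Its difference was 0.34, or -0.52 with no centring.

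Spliceosome, SR and hnRNP genes had 3 of 39 members 2-fold higher in labelled and 13 in flow-through RNA (median -0.69). The kinase CLK4, which phosphorylates SR proteins, was their highest at 1.69 (179 and 230.4 min), and PRPF31 of the U4/U6 particle their lowest at -1.64 (1329 and 1588 min). Of 45 translation factors 4 and 16 passed on the labelled and the flow-through side (median -0.71), and of 42 ribosome biogenesis genes 6 and 11 (median -0.29). RRS1, a 60S assembly factor with 1 exon, was at 57.5 and 54.3 in labelled RNA against 25.4 and 22.01 in the flow-through (2.11), and BOP1, which acts in the same assembly path, at 4.65 and 4.72 against 43.5 and 44.3 (-2.36). Mitochondrial ribosomal protein genes, with 4 and 14 of 57 past 2-fold, had a median of -0.43 and a median half-life of 564 min, against 1329 min for the cytosolic ribosome. Over all rows the medians were -0.22 and 684 min, so this list was lower than all rows in difference but also shorter in half-life. MRPL17 at 1.80 (159.6 and 202 min) and MRPL52 at -2.32 (1559 and 2761 min) were the extremes of the mitochondrial list.

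Ubiquitin ligases of the RNF, FBX and TRIM families had 39 of 113 members past 2-fold towards labelled and 7 towards flow-through RNA, although their median of 0.28 became -0.58 with no centring. FBXO17 was the lowest at -1.85 (1761 and 1783 min). Chromatin modifiers had 15 and 11 of 56 past 2-fold on the 2 sides, with the cytoplasmic deacetylase HDAC6 the lowest at -2.15 (2880.5 and 2563 min). Polymerase II, Mediator and general factors had 11 and 15 of 65, from MED9 at 3.34 to TAF6 at -2.18. Small GTPases had 9 and 16 of 62, with RAB4B the lowest at -2.65. Solute carriers had 13 and 25 of 114, from the zinc exporter SLC30A1 at 2.73 to SLC38A10 at -2.10. Of 31 cytoskeleton genes 1 and 12 passed, with the tubulin gene TUBB at 1.24 and ARPC3 of the Arp2/3 complex at -2.22. Nuclear pore and transport genes had 2 and 11 of 41, from the importin RANBP6, with 1 exon, at 2.34 to NUP188, with 44 exons, at -1.95. Ubiquitin-specific proteases had 5 and 2 of 33, and those with a mean total of 5 or more ran from USP38 at 1.78 to USP11 at -2.10. Of 33 lists, 10 with medians between -0.46 and 0 changed sign when columns were centred on rows with a total of 20 or more, and 4 between 0 and 0.36 did with no centring, so no direction is read for those lists.

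Gene structure, which the comparison did not use, moved with the difference. A transcript model of GENCODE 29 was matched to 7589 rows. The 158 genes with 1 exon had a median difference of 1.98 and a median half-life of 161 min, and 77.2% of them were 2-fold or more higher in labelled RNA against 0 in flow-through RNA. Genes with 2 exons were at 1.48, those with 3 to 4 at 0.42, those with 5 to 8 at -0.14, those with 9 to 15 at -0.45 and those with 16 or more at -0.56, with a median half-life of 973 min. Leaving out zinc finger and histone symbols, the 138 remaining genes with 1 exon were at 1.99. Exon junctions per kb of coding sequence fell from a median of 8.33 in the decile of genes furthest towards the flow-through to 1.98 in the decile furthest towards labelled RNA. Across genes the Spearman correlation was -0.59 (7589 genes, which share libraries and are not independent). Within deciles of genes by the number of T in the transcript it ran from -0.61 to -0.48, and within 4 bands of total RNA level from -0.58 to -0.40. OTUD1, with 1 exon, and ADAMTS1, with 9, were both among the 10 highest.

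AU-rich sequence in the 3' UTR also moved with the difference. Motifs were searched on the transcript strand of the longest annotated 3' UTR of 7570 genes, and each longer motif contains the shorter ones. The 727 genes with TTATTTATT had a median difference of 0.16, the 2036 with TATTTAT but not the 9-base motif 0.06, the 2898 with ATTTA but not TATTTAT -0.22, and the 1909 without ATTTA -0.72. Their median half-lives were 587, 621, 699 and 798 min. Longer 3' UTRs hold more motifs by their length alone, and 3' UTR length itself correlated with the difference (Spearman 0.26 across genes). With the deposited half-life the correlation of 3' UTR length was only -0.11, against 0.58 for junction density. The difference also rises with the number of T in the transcript, and the part of this in the motif medians was not tested. Within 5 bands of 3' UTR length, genes with TATTTAT were higher than those without by 0.21 to 0.45. In 3' UTRs of at most 500 bases the medians were -0.42 with the motif (140 genes) and -0.87 without it (1386 genes). The share of 3' UTRs with TATTTAT was 15.8% in the lowest decile, 46.3% in the ninth and 44.5% in the highest. The longest 3' UTR can belong to another transcript than the one whose exons and T were counted.

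**Figure D4:**
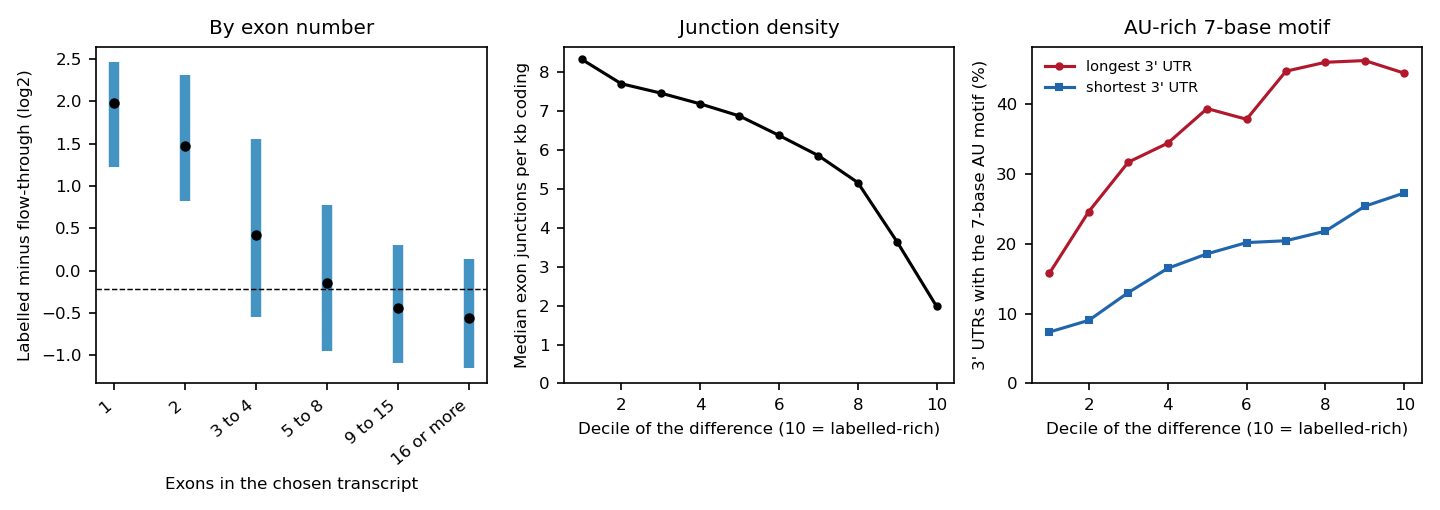
Left, labelled minus flow-through difference (log2, column medians subtracted) by number of exons, with medians as points, the 25th to 75th percentiles as bars and the median of all rows as a dashed line. Middle and right, median exon junctions per kb of coding sequence and the share of longest (red) and shortest (blue) annotated 3' UTRs (%) with the 7-base motif, by decile of the difference from flow-through-rich (1) to labelled-rich (10); junctions fell from 8.33 to 1.98 and the share in the longest 3' UTR rose from 15.8% to 44.5%.

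Rows with high total RNA values were mostly on the flow-through side, on a scale that is not known to be per transcript length. Rows with a total RNA value under 5 had a median difference of 0.71. Of them, 39.6% were 2-fold higher in labelled RNA and 4.42% in flow-through RNA. No value used was under 1.00, so at low totals there was little room for a labelled value far below the flow-through value. The share of flow-through-rich rows in this band is limited by that. Rows of 100 or more had a median of -1.34, and 64.7% were 2-fold higher in flow-through RNA. Across genes total RNA and the difference had a Spearman correlation of -0.46. It shares the libraries' normalisation and the lower limit of 1.00, and is given as a description. DDIT4, HES1 and ATF4 were exceptions, with total RNA of 114 and 119.6, 70.3 and 72.4 and 566 and 581 and differences of 4.56, 4.47 and 1.70.

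The deposited half-lives were not a fixed function of the labelled to flow-through ratio. Under first-order decay over 60 min, each half-life implies a weight by which the ratio of a gene had to be multiplied. That weight was nearly the same gene by gene in both columns (Pearson 0.9998 over 7682 genes) and fell with the number of T in the transcript (Spearman -0.81 over 7589 genes), the base where 4sU can enter. It was 1.94-fold higher in the decile of genes with the fewest T (median 206) than in the decile with the most (median 2395). Over the same deciles the median difference rose from -0.89 to 0.18, while the median half-life went from 778 to 644 min. The labels name no correction of this kind. With 1 weight for all genes, the half-lives of short transcripts with few T would have come out longer than deposited, relative to those of long ones. NDUFB1, with 136 T, and RPS10, with 138, are such transcripts, and their deposited half-lives of 2608 and 3044 min and of 1936 and 2205 min carry the larger weight.

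**Figure D5:**
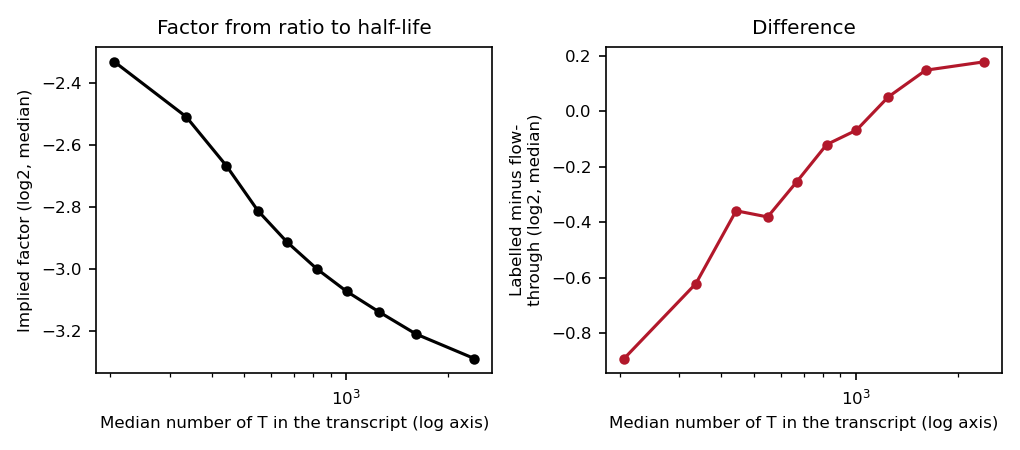
Medians over 10 groups of genes by the number of T in the transcript (log axis). Left, the weight (log2) that turns the labelled to flow-through ratio into the deposited half-life, falling from -2.33 to -3.29; right, the labelled minus flow-through difference (log2, column medians subtracted), rising from -0.89 to 0.18.

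A few rows rest on 1 column. JPH3, a junctional membrane protein gene, had half-lives of 5573 and 422 min, with flow-through values of 69.95 and 5.02 and labelled values of 3.901 and 3.98. Its difference was -1.39 (SE 1.02) and 0.51 without flow-through replicate 1. TRDMT1, an RNA methyltransferase gene, had labelled values of 13.2 and 3.63 and half-lives of 310.2 and 1521 min. Among rows with a mean total of 5 or more, PCSK1N, CNFN and SNORA23 were the other 3 of the 5 whose half-life columns differed most. Their half-lives were 2306 and 676 min, 317 and 980.3 min and 1056 and 329.7 min. Of these 5 rows only PCSK1N was called (limma, Benjamini-Hochberg adjusted p = 0.0026). LSR, OGFOD2 and MRPS10, 3 of the rows nearest to 0, had half-lives of 456 and 497 min, 497 and 472 min and 518 and 643 min. These were somewhat under the median half-life.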

How the data were processed

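Poly(A)+ RNA of mock-transfected HEK293 cells was sequenced, per the labels' protocols, as total RNA, 4sU-labelled RNA eluted from streptavidin beads and unlabelled flow-through. Per the submitters' processing notes, TopHat2 2.06 and the build hg18 were used; the labels name no program that made the values. Per gene, the deposited values are a normalised signal made by the authors, whose unit the header leaves unnamed, and half-lives by the authors. The half-life unit is not named, and minutes were inferred. For assumed labelling times of 10 to 240 min, a weight per gene was derived from the deposited half-life and the labelled to flow-through ratio. The weights of the 2 columns differed least at 55 min (SD of the log2 difference 0.0137). The SD changed little around it, with 0.0142 at 45 min, 0.0139 at 60 min and 0.0151 at 70 min. GEO has 1 sample per group, while the header gives 2 numbered columns, used as replicates; their numbers are not shown to pair fractions (correlation of deviations 0.062, 2 pairs).

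Values were log2 transformed without a pseudocount and each column's median over the 7682 rows was subtracted. The 2 labelled and 2 flow-through columns were compared with limma 3.58.1 (R 4.3.3; mean-variance trend, two-sided, Benjamini-Hochberg over all rows at 0.05), with a 2-fold rule beside it. On simulated data of 7682 genes 100% of differences of 1 log2 unit and 79% of those of 0.5 were recovered, and 4.28% of calls were false. These rates belong to the simulated data only. Whether they hold for the deposited values, where most rows were called, was not tested. Named genes were, among rows with a mean total of 5 or more, called, with separate columns: the 10 highest and 10 lowest protein-coding genes, up to 4 of each among other rows and the highest and lowest of each list. Added to these were 3 of the rows nearest 0, MOV10, UPF1 and the HEK293 marks. The 5 rows whose half-life columns differ most were taken among rows with a mean total of 5 or more. Genes and lists were chosen with earlier results of these data known. Symbols were matched to GENCODE 29 (GRCh38), 7225 directly and 422 by older symbols from RefSeq, 35 not at all; no coordinates are given, because the builds differ. Exons come from 1 transcript per gene. 10 row names are dates made by a spreadsheet and are not named. Alternatives were a pseudocount of 1, minimum totals of 5 and 20, other centrings, a replicate block, no trend, total RNA as reference, and leaving out each column. Centring on the middle row, and a test against 1 log2 unit, were added after seeing the data, as were genomic spans and promoter motifs. The 8 siRNA columns were not used. The values of 4 genes are not reported here.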

Additional observations from a re-analysis of the deposited data

How the results depend on the processing

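Counts moved with the centring, the minimum level and the difference tested against. With no centring 1362 rows were higher in labelled RNA by adjusted p, and 643 and 4055 were 2-fold or more higher in labelled and flow-through RNA. Centred on rows with a total of 20 or more, the 2-fold counts were 2263 and 994. With rows under a total of 20 left out, the counts by adjusted p were 857 and 1592 and the 2-fold counts 328 and 664, from fewer rows tested. Tested against 1 log2 unit (limma treat), 1204 and 1399 rows passed. Leaving out each column in turn gave 2707 to 2786 rows higher in labelled and 3668 to 3801 higher in flow-through RNA, and 2-fold counts of 1478 to 1519 and 1843 to 1865; the remaining column of a fraction is then assumed to vary like the others. With the replicate block the counts were 2873 and 3887, and 1498 and 1848 by 2-fold, and 3 of 101 named genes came to pass. The median half-life was 768 min for rows with a total of 5 or more and 534 min when recomputed by first-order decay from 1 weight for all genes. For rows with a total of 5 or more the Spearman correlations with the difference were -0.55 for junction density, -0.31 for exons, 0.28 for 3' UTR length and 0.25 for the number of T; over all genes it was 0.24 for the shortest 3' UTR. The cause of these shifts was not tested.

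Named genes near 0 changed sign. With no centring SNHG11 was at -0.51, UPF1 at -0.52, TRDMT1 at -0.67 and LSR at -0.865. Centred on rows with a total of 20 or more, OGFOD2 was at 0.461, MRPS10 at 0.46, TMED2 at 0.25, SDHD at 0.239, PSMD7 at 0.22, CSRNP2 at 0.184, DLAT at 0.181, CDH2 at 0.135, RPS27L at 0.0558 and AARS at 0.0503, and those that stay in the table were at the same values with rows under 20 left out. With rows under 5 left out OGFOD2 was at 0.0673 and MRPS10 at 0.0670. With total RNA as reference OGFOD2 was at 0.141, MRPS10 at 0.103, SDHD at 0.0399 and PSMD7 at 0.0573. With the middle row at 0, OGFOD2 and MRPS10 were at 0.22 and TMED2 at 0.0105. With a pseudocount of 1 LSR was at -0.0343. Leaving out each column in turn, TRDMT1 ran from -0.70 to 1.10, LSR from -0.0352 to 0.0366, OGFOD2 from -0.0525 to 0.0519, MRPS10 from -0.108 to 0.107 and JPH3 from -3.28 to 0.51. The unknown depth limits what can be said of values near 1.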

Other observations

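Rows matched to no protein-coding gene gave the most labelled-rich entry of the table. SNORD22, a small nucleolar RNA that is spliced out of the introns of its host transcript, had labelled values of 732 and 691 and flow-through values of 27.7 and 15.4 (difference 5.97, half-lives 19.5 and 15.9 min). SNORD17, another small nucleolar RNA, was at 13.7 and 19.00 against 53.7 and 50.03 (-0.82), and 2 further entries of the kind, SNORD86 and SNORA23, were not called. Small nucleolar RNAs lack poly(A) tails, and reads counted for such entries in poly(A)+ libraries cannot be told apart from reads of host transcripts here. SNHG11, a host transcript of other small nucleolar RNAs, was at 0.35, or -0.51 with no centring. Among the other rows HIST2H2BC was at 2.61, C14orf23 at 2.48 and C7orf60 at 1.84, while STRA13 was at -2.26 and AZI1 at -1.76. The symbols C7orf60, STRA13 and AZI1 were matched to no gene of the reference, so these rows are not known to be non-coding. The ribosomal pseudogenes RPLP0P2 (439.8 and 389 in labelled RNA against 3126 and 3043 in the flow-through, difference -2.03) and RPL13AP20 (-1.89) resembled the ribosomal protein genes in value and resemble their parent genes in sequence, so shared reads may not have been separated.

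Other sequence features were less even over the range. The share of 3' UTRs with TGTANATA, the motif of Pumilio proteins that repress and destabilise mRNAs, went from 12.4% in the lowest decile of the difference to 43.3% in the eighth and 37.7% in the highest, against 31.0% overall; 3' UTR length moved alongside, from a median of 524 bases in the lowest decile to 2012 in the eighth. In RefSeq promoter windows of 300 bases (GRCh38, both strands, 6320 genes) TATAAA, the TATA box, was found in 5.82% of the lowest decile, 3.39% of the sixth and 10.1% of the highest, against 5.32% overall. Genomic span, by contrast, had a Spearman correlation of -0.01 with the difference, and genes of at most 5 kb (median 0.24) and of over 400 kb (median 0.19) lay above those of 20 to 50 kb (-0.35).

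Total RNA was fitted as a weighted sum of labelled and flow-through RNA. The weights came from the same total values, and the median labelled share of the mixture was only 7.93% and 7.14%. Flow-through RNA alone already followed total RNA closely (Spearman 0.986 in replicate 1 and 0.990 in replicate 2, across genes). A close fit therefore cannot show that the fractions add up, and this was not tested. Fitted per replicate number, total RNA was 0.117 times labelled plus 0.659 times flow-through RNA, and 0.120 plus 0.721 in the other replicate, with departures of SD 0.23 and 0.19 on the log2 scale. Total RNA exceeded the mixture by 0.5 or more in both replicates in 94 rows, whose median transcript length was 9676 bases against 3080 over all, and fell below it in 5 rows. The departure rose with transcript length (Spearman 0.47 and 0.35 across genes), from -0.04 in both replicates in the shortest decile to 0.29 and 0.19 in the longest. GTF2H2C, with departures of 1.89 and 1.69, had total values of 39.7 and 39.0 but labelled values of 10.5 and 10.3 and flow-through values of 14.4 and 15.1. Its near-identical relative GTF2H2 was among the 5 rows below the mixture, at -0.57 and -0.75. HIPK2, a kinase gene with a transcript of 15049 bases, was above it by 1.21 and 1.08. The cause of these departures was not tested.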
